A study of Mus musculus with 14 samples.

Results

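Genes of the translation initiation and elongation factors were taken from the differentiation table by symbol, as names that begin with *Eif1* to *Eif6* or with *Eef1* or *Eef2*. Of the 39179 genes listed, 68 matched. The 4 *Eif2ak* kinase genes and 4 pseudogenes were left out, which gave 60 genes, 52 initiation and 8 elongation factor genes by name. In the sorted libraries 59 of the 60 were found among 35886 genes, and 55 were measured well enough to be tested in each experiment.

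Both experiments used Ocy454 cells, a mouse osteocyte-like line that carries a thermosensitive large T antigen, divides at 33 °C and differentiates at 37 °C. All samples are this 1 line. The differentiation libraries were made on day 1, day 7, day 10 and day 14 of culture at 37 °C, with 2 biologic replicates a day and 8 libraries in all. The sorted libraries were made after 17 days at 37 °C from live cells labelled with a CD61-PE antibody, 3 of the 10% with the most surface CD61 (CD61 high) and 3 of the 10% with the least (CD61 low). CD61 is integrin beta 3, the product of *Itgb3*, and the labels name no drug or gene knockdown for these libraries. The RNA was polyA-selected in both experiments, but was extracted with different kits, mapped with different tools and normalised separately. Levels were therefore tested within an experiment only. The question put to the genes was how their expression moved with days of differentiation, and how it differed between cells sorted by surface CD61, which the study used to mark differentiation.

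Initiation factors bring the small ribosomal subunit, the initiator methionyl-tRNA and the mRNA together. The eIF4F complex (cap-binding eIF4E, scaffold eIF4G and helicase eIF4A) recruits the mRNA, eIF2 carries the initiator tRNA as a GTP complex that eIF2B recharges, and the large eIF3 complex holds the parts on the small subunit. Once the start codon is found, eIF5 and eIF5B release the factors and join the large subunit. Elongation then runs on eEF1A, which delivers aminoacyl-tRNAs, its exchange factor eEF1B, and eEF2, which moves the ribosome along the mRNA. In cells of the bone lineage, which secrete large amounts of collagen matrix, these factors carry the protein synthesis behind that matrix.

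Sequence is shown here for 2 sets. The first set holds the target sites of the 2 hairpin RNAs that the study designed against *Eif3b*, an eIF3 subunit on the gene list of its CRISPR interference screen. The expression of *Eif3b* itself, without any hairpin, is given below. Capitals mark the whole 21 bases of each site, which match the plus strand of GRCm39 at chr5:140418788-140418808 and chr5:140427511-140427531. They lie in the coding parts of exons 10 and 16 of the 19 exons of the reference transcript *Eif3b-201*, and no transcript of another gene matched them.
Eif3b shRNA 1: CGAGTGAGGAATTTGTTCAAT
Eif3b shRNA 2: AGAAGTACTCCAAGATCTTTG

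The second set holds transcription start windows. Many translation factor mRNAs begin with a 5′ terminal oligopyrimidine (TOP) tract, a run of C and T bases that lets mTORC1 signalling set how well the mRNA is translated. RefSeq start sites (GRCm38.p6) were found for 46 of the 60 genes. A run of at least 8 pyrimidines on the coding strand, in the 30 bases from 5 before to 25 after a start, was present for 12 of the 46 (26.1%), against 11.9% of all 27025 genes in that table. Of the 12, *Eef1a2*, *Eif2s3y* and *Eif2c5* were at or near 0 here, which leaves 9 of 43 tested genes (20.9%). A match describes these letters only. Of the 9 genes that were higher both at day 14 and in CD61 high cells, 8 had a start in that table and 4 of these had such a run. Of the 11 genes lower in both, 8 had a start and 1 had a run. The windows below were chosen after the runs were seen, to show both kinds. The first 4 are the genes higher in both that had a run, the last 4 are genes lower in both without one, and capitals mark the longest pyrimidine run.
Eef1a1 (chr9:78481700-78481729, minus strand): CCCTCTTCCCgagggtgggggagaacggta
Eef2 (chr10:81176626-81176655, plus strand): cgggcgttgacgtcagcggTCTCTTCCgcc
Eif3f (chr7:108934410-108934439, plus strand): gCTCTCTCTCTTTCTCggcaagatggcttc
Eif3k (chr7:28981864-28981893, minus strand): gcgctggtgctgaaagcgCCTTTCCCTTTg
Eif3b (chr5:140419300-140419329, plus strand): gcggtgaCTTCTgggagtcggaagcagggc
Eif5b (chr1:37998005-37998034, plus strand): TTCCCacctggccggcggctctactggaga
Eif2s1 (chr12:78862067-78862096, plus strand): ggcgaagcgcacgctgaggagCTTCggcgt
Eif2s2 (chr2:154892882-154892911, minus strand): tggCTTTactgtacgcctgcgctttggcga
The runs of *Eif3f*, *Eif3k*, *Eef1a1* and *Eef2* are 15, 11, 10 and 8 bases long, and those of *Eif3b*, *Eif5b*, *Eif2s1* and *Eif2s2* are 5, 5, 4 and 4. Not shown are the other genes higher in both, *Eef2k*, *Eif1b* and *Eif2a* with runs of at most 4 bases and *Eif4b* with 7, and among the lower genes *Eif2b2* with a run of 8. The E-box CACGTG, a palindrome searched in the 300 bases from 250 before to 50 after a start, was found for 12 of the 46 genes (26.1%) and 8.09% of all genes. The motif TGATGNAA, searched on both strands, was found for 2 of the 46 (4.35%) and 4.51% of all genes.

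The depth was 27518605 to 34311238 reads on genes in the differentiation libraries and 18815602 to 19220064 estimated counts in the sorted libraries. At these depths 3 reads in a library are worth 0.0874 to 0.109 CPM in the former and 0.156 to 0.159 CPM in the latter, a limit that covers counting error only. As checks of the labels, *Itgb3* rose from 10.3 and 10.9 CPM at day 1 to 56.9 and 57.6 at day 14, and its TMM-normalised CPM was 5.31 to 6.10 in CD61 low and 100.1 to 130.1 in CD61 high cells. Osteocyte markers were present but mixed: *Dmp1* and *Phex* were at 54.9 and 93.9 CPM on average at day 14, *Sost* at 17.7 and *Mepe* at 0.411. *Dmp1*, *Phex* and *Sost* were called higher at day 14 and in CD61 high cells, and *Mepe* was not tested. *Pdpn*, the other tested marker on that list, was called lower in both. It went from 28.2 CPM at day 1 to 19.3 at day 14, and had 11.1 TMM-normalised CPM in CD61 high against 15.5 in CD61 low cells. The 4 endothelial markers and the 4 adipocyte markers each summed to under 1 CPM in every library. The 4 macrophage markers found summed to 1.82 to 4.99 CPM in the day means and to 7.76 CPM in CD61 high against 16.3 in CD61 low cells on average, most of it *Cd68* (1.66 of 2.52 CPM at day 1), while *Ptprc*, the pan-leukocyte marker, was at 0 in 9 of 14 libraries.

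The 5 genes that could not be tested were at or near 0. *Eef1a2*, the muscle and neuron form of eEF1A, had 2 reads in the 8 differentiation libraries together and none in the sorted libraries. *Eif2s3y*, the Y-linked copy of the eIF2 gamma gene, had 0 reads in all 14 libraries, which allows a level of up to 0.0120 CPM over the differentiation libraries and 0.0264 CPM over the sorted libraries. *Eif4e1b*, known from oocytes, had 1 read and 2 counts. *Eif4ebp3* had at most 5 reads and 8 counts in a library. *Eif2c5*, annotated as a long non-coding RNA and caught by the name pattern, had 1 read and was not among the sorted genes.

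In the sorted cells, TPM, a measure of abundance that allows for transcript length, spread over more than 3 orders of magnitude among the tested genes. *Eef1a1*, on chromosome 9 (78384916 to 78396778, minus strand) in GRCm39, led with 5310.0 ± 113 TPM in CD61 low and 6736 ± 356 in CD61 high cells (SD, n = 3), which placed it 13th among all genes. *Eef2* followed with a mean of 1343 TPM over the 6 libraries, then *Eif1* with 816 and *Eif5a* with 594. The ranges of these 4 did not overlap. From *Eif5a* downwards the range of each gene overlapped that of the next, so the order of neighbours is not resolved, until *Eif4e3* at the low end with 4.64 TPM. Subunits of the same complex differed widely. Within eIF3, *Eif3h* had a mean of 499 TPM, *Eif3k* 444, *Eif3b* 104.5, *Eif3a* 102 and *Eif3j1* 8.81. Within eIF2 and eIF2B, *Eif2s3x* had 103.7 TPM and *Eif2b3* 14.1.

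**Figure D1:**
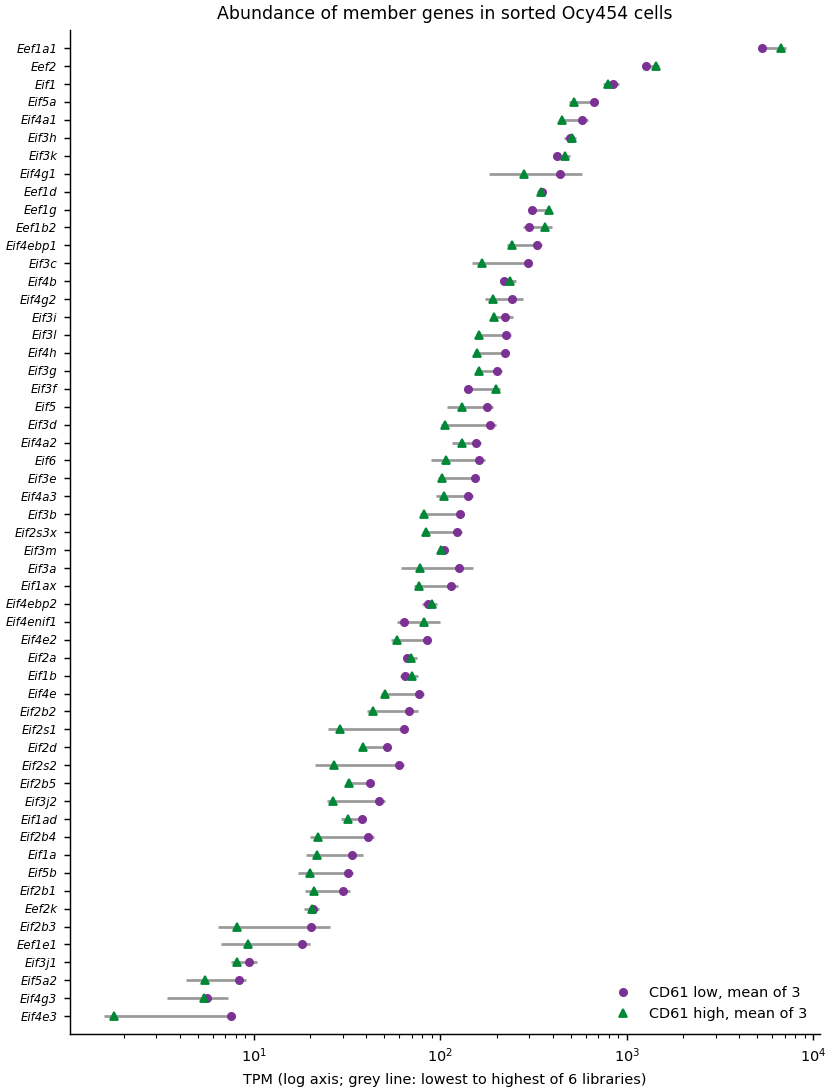
Abundance of the 55 tested genes in the sorted libraries, in TPM on a log axis. Circles and triangles are the means of the 3 CD61 low and 3 CD61 high libraries, grey lines run from the lowest to the highest of the 6 libraries, and *Eef1a1* at 5204 to 7110.0 TPM stands clear of every other gene.

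Together the 60 genes took 1.44 to 1.45% of the reads on day 1, 1.67 to 1.68% on day 7, 1.59 to 1.62% on day 10, and 1.40 to 1.44% on day 14. Initiation and elongation factors had different courses. The 8 elongation factor genes took 0.448% of reads on the first day, then 0.603%, 0.652% on day 10, and 0.524% in the end (means of 2 libraries). The 52 initiation factor genes went from 0.999% to 1.07%, then 0.954%, and took 0.888 to 0.912% in the last libraries. In the sort, where the sums are of unscaled counts, elongation factor genes took 0.797 to 0.850% of counts in CD61 low and 1.02 to 1.05% in CD61 high cells. Initiation factor genes took 0.846 to 0.888% in CD61 low and 0.683 to 0.688% in CD61 high cells. The size of the initiation difference depends on scaling. As TMM-normalised CPM, which also divides by the TMM factor of each library, the initiation sum was 7715 to 7877 in CD61 low and 7540 to 7682 in CD61 high libraries, and the elongation sum was 7268 to 7688 and 11305 to 11562. The elongation sum was higher and the initiation sum lower in every CD61 high library with either scaling, and *Eef1a1* and *Eef2* make up most of the former.

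Changes were called at an adjusted p below 0.01 over all genes tested, with 12725 genes in limma for the differentiation and 12077 in edgeR for the sort. At day 7, 26 of the 55 genes were higher than at day 1 and 6 were lower, where 24.5% and 32.0% of all genes were called in those directions. At day 10, 14 were higher and 20 lower than at day 1 (33.1% and 30.3% of all genes). At day 14, 15 were higher and 24 lower than at day 1 (32.6% and 36.0% of all genes). From day 7 to day 10, 5 rose and 27 fell (29.8% and 18.9% of all genes), and from day 10 to day 14, 14 rose and 23 fell (22.9% and 30.0% of all genes). The median Log2FC against day 1 of the 55 genes was 0.16 at day 7, -0.04 at day 10 and -0.09 at day 14, beside -0.05, 0.02 and -0.03 for all genes. Changes were small. With a Log2FC above 1 or below -1 also required, none of the 55 was called against day 1, where 9.11%, 10.5% and 13.4% of all genes were called at days 7, 10 and 14, and none between consecutive later days, where 2.22% and 2.96% were. The ratio of the highest to the lowest day mean ran from 1.15 for *Eef1g* to 1.87 for *Eif5b*, with a median of 1.35. Log2FC values are on the log2(CPM + 1) scale, which makes the change of a low gene slightly smaller than its ratio. In bulk RNA, fewer cells of a type and less RNA per cell cannot be told apart.

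**Figure D2:**
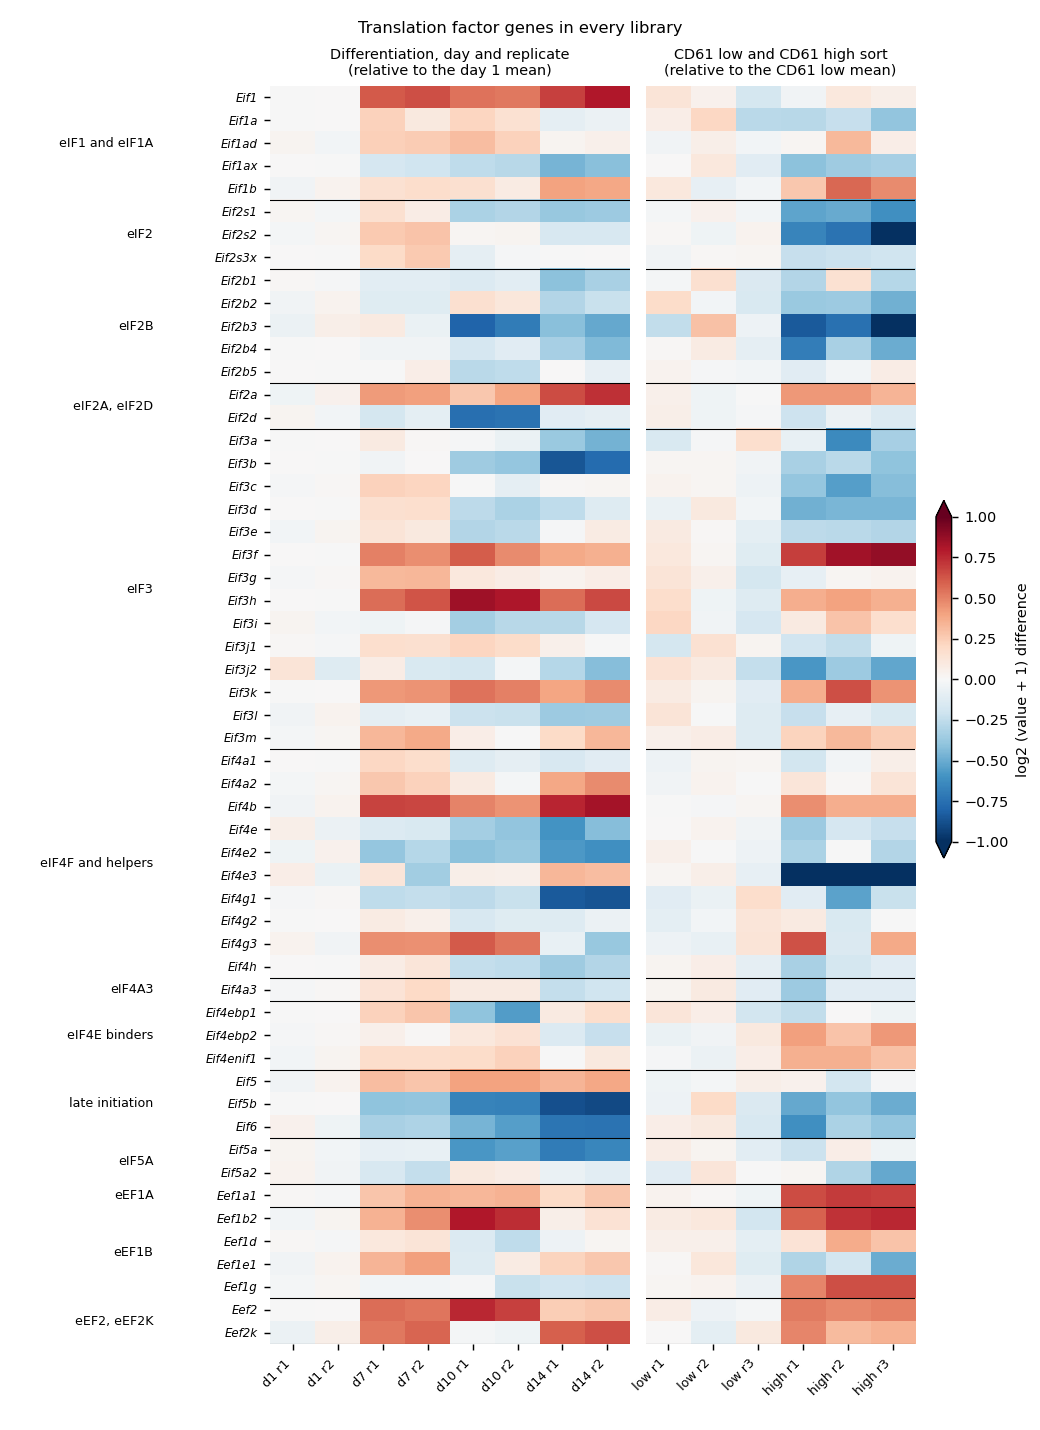
Expression of the 55 tested genes in each of the 14 libraries, grouped by role, as log2(value + 1) minus the mean of day 1 (8 differentiation libraries, CPM) or of CD61 low (6 sorted libraries, TMM-normalised CPM). Red is higher and blue lower, colours saturate at 1 and -1, and *Eif4e3* in CD61 high cells lies beyond that at a Log2FC of -1.75.

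Of the 7 elongation factor genes tested, 5 were higher at day 7 than at day 1 and none was lower (24.5% and 32.0% of all genes), and *Eef1b2* and *Eef2* peaked at day 10. *Eef2* was measured at 2174 and 2186 CPM on day 1, 3206 and 3165 on day 7, 3674 and 3504 on day 10, and 2593 and 2626 on day 14, and its lowest later library lay above both day 1 libraries. Its Log2FC was 0.55 at day 7, 0.72 at day 10 and 0.26 at day 14 (SE 0.04, limma adjusted p = 5.9e-06). *Eef2k* encodes the kinase that inactivates eEF2, and it had another course with a dip at day 10. It was at 54.5 and 58.9 CPM on day 1, 82.2 and 85.1 on day 7, 55.8 and 54.9 on day 10, and 86.1 and 89.1 on day 14, so that day 10 overlapped day 1 while days 7 and 14 did not. Its Log2FC at day 14 was 0.62 (SE 0.05, limma adjusted p = 8.9e-12) and that from day 7 to day 10 was -0.59 (SE 0.05, limma adjusted p = 1.1e-10). *Eef1a1* was at 1617 and 1588 CPM on day 1, 1941 and 2036 on day 7, 2021 and 2038 on day 10, and 1834 and 1933 on day 14, and no later library overlapped day 1. Its Log2FC at day 14 was 0.23 (SE 0.04, limma adjusted p = 1.7e-05). Among the eEF1B exchange factor genes, *Eef1b2* was at 341 and 353 CPM on day 1, 442 and 480.3 on day 7, 606 and 580.0 on day 10, and 362 and 384 on day 14, and it differed most between day 10 and day 1 with a Log2FC of 0.77. At day 14 its Log2FC of 0.10 did not pass the threshold. *Eef1g* moved least, from 56.2 and 57.7 CPM at day 1 to 49.8 and 49.2 at day 14, and that call (Log2FC -0.20, adjusted p = 0.0028 in limma) was lost under TMM scaling, quantile normalisation, no filter or no trend, and without day 1 replicate 2 or either day 14 replicate.

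The eIF3 subunits went in both directions. Of the 14 genes, 7 were higher and none lower at day 7 (a further 7 did not pass the threshold, and 24.5% and 32.0% of all genes were called higher and lower), while at day 14 *Eif3f*, *Eif3h*, *Eif3k* and *Eif3m* were higher and *Eif3a*, *Eif3b*, *Eif3d*, *Eif3i*, *Eif3j2* and *Eif3l* lower than at day 1. Those 4 and 6 of 14 are shares near the 32.6% and 36.0% of all genes. The call of *Eif3d* was lost without the trend, and that of *Eif3j2* (adjusted p = 0.01 in limma) under 11 settings, edgeR on the reads and TMM scaling among them. *Eif3b*, which with *Eif3a* forms the core of the complex and lies on chromosome 5 (140405057 to 140429117, plus strand), was at 478 and 475 CPM on day 1, 465 and 477 on day 7, 373 and 365 on day 10, and 264 and 279 on day 14. Day 7 overlapped day 1, and days 10 and 14 lay below both, in that order. The Log2FC at day 14 was -0.81 (SE 0.04, limma adjusted p = 9.3e-17), the third lowest of the 55 genes. *Eif3a* was at 632 and 634 CPM on day 1, 673 and 638 on day 7, 627 and 604 on day 10, and 488 and 455 on day 14, with day 7 just above and day 10 just below day 1 and day 14 well below, at a Log2FC of -0.43 (SE 0.04, limma adjusted p = 2.9e-10). *Eif3h*, a subunit of the non-core module, was at 221 and 219.7 CPM on day 1, 325 and 341 on day 7, 398 and 387 on day 10, and 326 and 348 on day 14. All later libraries were above day 1, with a Log2FC of 0.83 at day 10 and 0.61 at day 14 (SE 0.04, limma adjusted p = 1.4e-13). *Eif3f*, which with *Eif3h* carries an MPN-type fold, was at 142 and 141 CPM on day 1, 202 and 196 on day 7, 216 and 197 on day 10, and 184 and 181 on day 14, again above day 1 in each later library (Log2FC 0.36 at day 14, SE 0.04, limma adjusted p = 1.0e-08). *Eif3c*, a further core subunit, was at 477 and 487 CPM on day 1, 565 and 560.3 on day 7, 481 and 454 on day 10, and 485 and 489 on day 14, and its Log2FC of 0.01 at day 14 did not pass the threshold (adjusted p = 0.72 in limma). *Eif3l* was at 236 and 249 CPM at day 1 and 188 and 189 at day 14, a Log2FC of -0.36 (SE 0.04, limma adjusted p = 2.0e-09).

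Ratios of 2 genes within a library do not depend on how libraries were scaled. The pairs were chosen after the values were seen and are given as a description. Reads on *Eif3h* per read on *Eif3b* were 0.463 and 0.462 on day 1, 0.7004 and 0.714 on day 7, 1.07 and 1.06 on day 10, and 1.24 and 1.25 on day 14. The same ratio for *Eif3f* was 0.296 and 0.298 at day 1 and 0.698 and 0.650 at day 14, and for *Eif3k* 0.283 and 0.286 and 0.676 and 0.675. No 2 days overlapped in the first of these ratios.

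Of the 10 cap-binding eIF4F genes and their helpers that were tested, *Eif4b* and *Eif4a2* were higher at day 14 than at day 1 and *Eif4g1*, *Eif4e*, *Eif4e2*, *Eif4h* and *Eif4a1* were lower (32.6% and 36.0% of all genes). *Eif4b* encodes a cofactor of the eIF4A helicase and had the highest Log2FC of the 55 genes at day 14. It was at 483 and 507 CPM on day 1, 791 and 785 on day 7, 697 and 674 on day 10, and 837 and 880.4 on day 14, above day 1 in every later library, with a Log2FC of 0.79 at day 14 (SE 0.04, limma adjusted p = 3.4e-16). *Eif4g1*, the main scaffold of eIF4F, was at 1318 and 1343 CPM on day 1, 1114 and 1131 on day 7, 1112 and 1143 on day 10, and 744 and 731 on day 14. Days 7 and 10 overlapped each other below day 1, and day 14 was lower again, with a Log2FC of -0.85 (SE 0.04, limma adjusted p = 3.6e-17). *Eif4h*, a further eIF4A cofactor, was at 624 and 618 CPM on day 1, 652 and 676 on day 7, 525 and 522 on day 10, and 486 and 506 on day 14, above day 1 at day 7 and below it at days 10 and 14 (Log2FC -0.32 at day 14, SE 0.04, limma adjusted p = 9.3e-09). Cap-binding *Eif4e* had a Log2FC of -0.51 and *Eif4e2*, a cap-binding homologue linked to repression, of -0.59. *Eif4a1* fell by 0.14, a call lost under TMM scaling, without the trend, with edgeR on the reads, and without either day 1 replicate or day 14 replicate 1. The helicase paralogue *Eif4a2* rose by 0.43. Among the eIF4E-binding repressors, the mean of *Eif4ebp1* was 180.3 ± 0.767 CPM on day 1, 215 ± 5.64 on day 7, 129 ± 9.79 on day 10, and 198 ± 8.38 on day 14 (SD over the 2 libraries), with its lowest level at day 10. Its values were chosen after they were seen, and the call at day 14 was lost under several settings.

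Among the factors of start codon selection and subunit joining, *Eif1* rose and *Eif5b* and *Eif6* fell. *Eif1*, which guards the accuracy of start codon choice, was at 128 and 128 CPM on day 1, 197 and 201 on day 7, 187 and 185 on day 10, and 207 and 224 on day 14, with every later library above day 1 and a Log2FC of 0.74 at day 14 (SE 0.04, limma adjusted p = 3.7e-15). *Eif1ax*, one of the eIF1A genes, fell by 0.44. *Eif5b*, the GTPase that joins the subunits, was at 165 and 166 CPM on day 1, 125 and 125 on day 7, 103.6 and 103 on day 10, and 89.4 and 88.0 on day 14. Each day was below the one before without overlap, and the Log2FC at day 14 of -0.89 was the lowest of the 55 genes (SE 0.04, limma adjusted p = 4.7e-17). *Eif6*, which keeps the large subunit from joining too early and acts in its assembly, was at 185 and 173 CPM on day 1, 143 and 145 on day 7, 129 and 122 on day 10, and 108 and 107 on day 14, also lower on each successive day (Log2FC -0.73 at day 14, SE 0.04, limma adjusted p = 1.3e-14). *Eif5a*, which relieves ribosomes stalled at prolines and carries the hypusine residue, was at 675 and 652 CPM on day 1, 626 and 629 on day 7, 443 and 454 on day 10, and 408 and 423 on day 14. Its days 10 and 14 lay well below days 1 and 7, with a Log2FC of -0.68 at day 14 (SE 0.04, limma adjusted p = 3.5e-15). *Eif5*, the GTPase activator of eIF2, rose by 0.37.

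Of the 3 eIF2 genes tested, 2 were lower at day 14 than at day 1, and of the 5 eIF2B genes 4 were lower, where 36.0% of all genes were. The eIF2B genes had a median Log2FC of -0.37, and none of them passed the threshold at day 7. *Eif2b3* encodes the gamma subunit of the catalytic part, and was at 28.6 and 31.2 CPM on day 1, 31.8 and 28.4 on day 7, 16.7 and 18.02 on day 10, and 22.1 and 20.7 on day 14. It was lowest at day 10 with a Log2FC of -0.75, and was -0.46 at day 14 (SE 0.07, limma adjusted p = 3.6e-06). *Eif2b4* was at 46.5 and 46.6 CPM at day 1 and 36.9 and 34.0 at day 14, a Log2FC of -0.39 (SE 0.06, limma adjusted p = 7.2e-07). *Eif2s1*, the alpha subunit of eIF2 whose phosphorylation slows initiation, was at 123 and 119 CPM on day 1, 135 and 127 on day 7, 96.8 and 98.4 on day 10, and 92.4 and 93.6 on day 14. It was higher in both day 7 libraries than on any other day and lower than day 1 in both day 10 and both day 14 libraries (Log2FC -0.37 at day 14, SE 0.04, limma adjusted p = 1.2e-08). *Eif2s2*, the beta subunit, was at 107 and 109 CPM on day 1, 130.1 and 132 on day 7, 109 and 110.1 on day 10, and 96.4 and 96.9 on day 14, with a Log2FC of 0.28 at day 7 and -0.16 at day 14, the latter lost without day 1 replicate 2. *Eif2a*, which can bring the initiator tRNA without eIF2 and is not an eIF2 subunit, went the other way. It was at 89.2 and 94.8 CPM on day 1, 124 and 122 on day 7, 111 and 121 on day 10, and 145 and 154 on day 14, above day 1 in each later library, with a Log2FC of 0.69 at day 14 (SE 0.05, limma adjusted p = 3.5e-13).

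**Figure D3:**
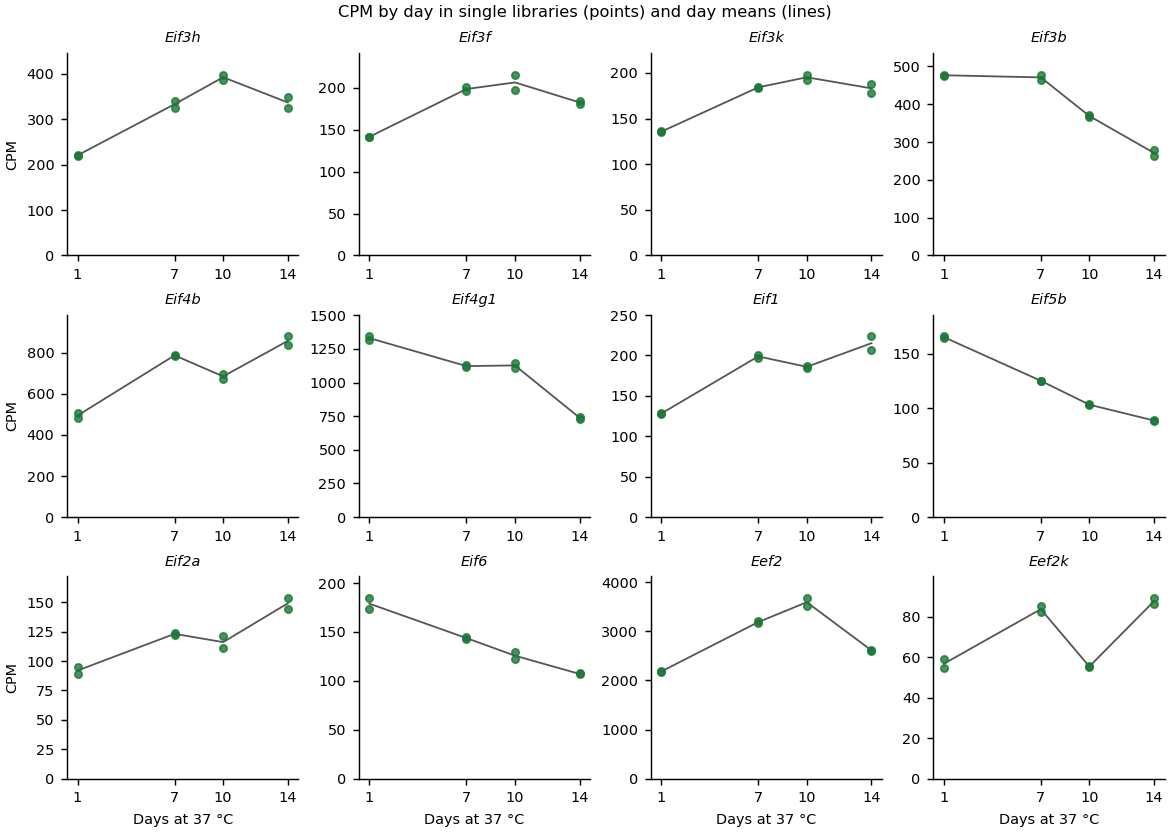
CPM of 12 genes against days at 37 °C, with points for the 2 libraries of each day, lines through the day means and axes from 0. *Eif3h*, *Eif3f*, *Eif3k*, *Eif4b*, *Eif1*, *Eif2a* and *Eef2* lie above day 1 in all later libraries, *Eif4g1*, *Eif5b* and *Eif6* below it, *Eif3b* falls after day 7, and *Eef2k* dips at day 10.

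By day, 18 of the 55 genes had their highest mean at day 7 and 23 their lowest at day 14. Day 10 was the lowest for 13 genes and the highest for 15. The same tally over all genes is not given here, so these counts are a description only. *Eif2d*, which can place tRNA on the ribosome without GTP and was chosen after its values were seen, had means of 59.7 ± 2.39 CPM on day 7, 38.8 ± 0.251 on day 10, and 61.0 ± 0.642 on day 14 (SD over the 2 libraries), a Log2FC of -0.61 into day 10 and 0.64 out of it.

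In the sort, 13 of the 55 genes were higher and 14 lower in CD61 high than in CD61 low cells, where 19.4% and 16.0% of all genes were called in those directions. The median Log2FC of the 55 was -0.14, beside 0.00 for all genes. *Eif4e3* alone also had a Log2FC below -1 (9.22% of all genes were beyond 1 or -1), and by library size alone *Eif2b3* and *Eif2s2* did too, 3 genes in all (10.6% of all genes). These counts depend on scaling and on single libraries. The TMM factors were 1.10 to 1.13 in CD61 low and 0.895 to 0.909 in CD61 high libraries, and with scaling by library size alone, which moved the median of all genes to -0.29, 4 genes were higher and 33 lower (9.32% and 39.9% of all genes). No called gene changed sign, and the 4 that stayed higher were *Eef1a1*, *Eef1b2*, *Eef1g* and *Eif3f*. Without CD61 low replicate 2, 8 were higher and 7 lower. Without CD61 high replicate 3, 9 were higher and 6 lower, and without CD61 low replicate 1, 12 were higher and 9 lower. The shares of all genes called in those fits are not given here, so these counts do not mark a trait of the members. The 10 genes that were called in the same direction with each library left out and under each of the other 8 settings tried, among them an offset for effective transcript length, were *Eef1a1*, *Eef1b2*, *Eef1g*, *Eif3f*, *Eif2b3*, *Eif2s1*, *Eif2s2*, *Eif3c*, *Eif3d* and *Eif4e3*.

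Of the 7 elongation factor genes tested, 5 were higher in CD61 high cells and none was lower (19.4% and 16.0% of all genes), while by library size alone 3 were higher and 1, *Eef1e1*, was lower (9.32% and 39.9% of all genes). Values are given as TMM-normalised CPM. *Eef1a1* was at 4899, 4827 and 4659 in CD61 low and 7532, 7777 and 7683 in CD61 high cells. The groups did not overlap, and the Log2FC was 0.68 (SE 0.07, edgeR adjusted p = 2.3e-05). *Eef2* was at 2141, 1963 and 2015 in CD61 low and 2923, 2845 and 2884 in CD61 high, again without overlap, a Log2FC of 0.50 (SE 0.07, edgeR adjusted p = 0.00018) that was 0.20 and not called with scaling by library size alone (adjusted p = 0.024 in edgeR). Among the eEF1B genes, *Eef1b2* was at 141, 143 and 118 in CD61 low and 201, 221 and 226 in CD61 high, a Log2FC of 0.69 (SE 0.09, edgeR adjusted p = 0.00013). *Eef1g*, the gamma subunit of the same factor, was at 314, 317 and 296 in CD61 low and 434, 484 and 484 in CD61 high, a Log2FC of 0.60 (SE 0.07, edgeR adjusted p = 8.0e-05). Neither pair of groups overlapped. *Eef1d* (Log2FC 0.27) did not pass the threshold, nor did *Eef1e1* (-0.35), which is grouped here by its name. *Eef2k* was at 40.3, 37.4 and 43.0 in CD61 low and 56.8, 50.4 and 51.3 in CD61 high, a Log2FC of 0.39 (edgeR adjusted p = 0.003) that was lost with scaling by library size alone, with the length offset, and without CD61 low replicate 1 or 2 or CD61 high replicate 1 or 3.

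Of the 14 eIF3 genes, 3 were higher and 5 lower, and 1 was higher and 8 lower by library size alone. Of all genes 19.4% were higher and 16.0% lower, or 9.32% and 39.9% by library size alone. *Eif3f* was at 179, 169 and 153 in CD61 low and 269.9, 298 and 307 in CD61 high, which left a wide gap between the groups and gave the highest Log2FC of all 55 genes, 0.81 (SE 0.08, edgeR adjusted p = 2.4e-05). *Eif3k* rose by 0.49 and *Eif3h* by 0.37. *Eif3h* was at 355, 304 and 288 in CD61 low and 405, 415 and 402 in CD61 high, without overlap, but its call was lost in 5 of the 6 fits that left out a library, all but that without CD61 low replicate 1, and with the length offset. *Eif3k* was not called with scaling by library size alone, nor was *Eif3h*. On the other side, *Eif3c* was at 501, 494 and 471 in CD61 low and 373, 333 and 363 in CD61 high, a Log2FC of -0.46 (SE 0.07, edgeR adjusted p = 0.00039). *Eif3b* was at 212, 212 and 205 in CD61 low and 167, 174 and 159 in CD61 high, without overlap, a Log2FC of -0.33 (SE 0.07, edgeR adjusted p = 0.0021) that was lost without CD61 low replicate 2 or CD61 high replicate 3. *Eif3d*, the subunit that can bind the cap of some mRNAs, had a Log2FC of -0.47, *Eif3j2* of -0.51 and *Eif3e* of -0.28, and the last 2 of these calls were lost without single libraries, that of *Eif3e* also with no filter, the length offset or the replicate block. *Eif3a* was at 285, 315 and 357 in CD61 low and 301, 204 and 252 in CD61 high, with overlapping groups and a Log2FC of -0.34 that did not pass the threshold (edgeR adjusted p = 0.055). *Eif3l* was at 234, 213 and 196 in CD61 low and 182, 202 and 192 in CD61 high, also with overlapping groups (Log2FC -0.16, adjusted p = 0.13 in edgeR). By library size alone both were called lower, *Eif3a* at -0.64 and *Eif3l* at -0.46. Counts on *Eif3f* per count on *Eif3b* were 0.841, 0.794, 0.747 in CD61 low and 1.61, 1.72, 1.94 in CD61 high libraries, and for *Eif3h* per *Eif3b* 1.67, 1.43, 1.41 and 2.42, 2.39, 2.53. Neither ratio overlapped between the groups.

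The eIF2 and eIF2B genes were lower or not past the threshold in CD61 high cells, with no gene of the 8 tested higher and 5 lower (19.4% and 16.0% of all genes). *Eif2s2* was at 83.6, 80.7 and 85.0 in CD61 low and 52.2, 49.4 and 37.5 in CD61 high, a Log2FC of -0.84 (SE 0.11, edgeR adjusted p = 0.00015). *Eif2s1* was at 72.2, 75.5 and 71.8 in CD61 low and 50.6, 51.2 and 47.4 in CD61 high, a Log2FC of -0.56 (SE 0.07, edgeR adjusted p = 0.00011). Both sets of groups were well apart. *Eif2b3* was at 12.4, 18.5 and 14.4 in CD61 low and 7.92, 8.52 and 6.29 in CD61 high, a Log2FC of -0.996 (SE 0.17, edgeR adjusted p = 0.00091). *Eif2b4*, the delta subunit of eIF2B, was at 31.9, 33.6 and 29.7 in CD61 low and 19.2, 25.2 and 22.2 in CD61 high, a Log2FC of -0.52 (SE 0.11, edgeR adjusted p = 0.0029), a call lost without CD61 low replicate 1 or 2 or CD61 high replicate 3. *Eif2a* rose by 0.41, or by 0.11 and not called with scaling by library size alone (adjusted p = 0.2 in edgeR), and its counts per count on *Eif2s1* were 0.920, 0.824, 0.891 in CD61 low against 1.73, 1.70, 1.72 in CD61 high libraries, with no overlap.

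Among the other initiation factors the largest difference was in *Eif4e3*, a divergent member of the eIF4E family on chromosome 6 (99602081 to 99643784, minus strand). It was at 9.81, 10.1 and 9.08 in CD61 low and 2.41, 3.45 and 2.76 in CD61 high, a Log2FC of -1.75 (SE 0.17, edgeR adjusted p = 1.8e-05), and the groups were far apart. Over the days it did not pass the threshold against day 1, at 5.49 and 4.92 CPM on day 1, 5.76 and 3.87 on day 7, 5.45 and 5.41 on day 10, and 6.82 and 6.69 on day 14. *Eif4b* was at 429, 426 and 436 in CD61 low and 595, 555 and 556 in CD61 high, a Log2FC of 0.40 (SE 0.06, edgeR adjusted p = 0.00053) that was not called with scaling by library size alone. *Eif4g1* was at 616, 639 and 755 in CD61 low and 617, 459.6 and 571 in CD61 high, with overlapping groups and a Log2FC of -0.29 that did not pass the threshold (edgeR adjusted p = 0.06), while by library size alone it was called lower (-0.59). *Eif4h* was at 267, 274 and 247 in CD61 low and 209, 232 and 243 in CD61 high (Log2FC -0.20, adjusted p = 0.051 in edgeR), and was also called lower by library size alone (-0.51). *Eif5b* was at 80.2, 94.7 and 75.1 in CD61 low and 58.0, 62.9 and 58.4 in CD61 high, a Log2FC of -0.48 (SE 0.09, edgeR adjusted p = 0.0018), lost with the length offset and without CD61 high replicate 3. *Eif6* was at 83.2, 85.3 and 71.0 in CD61 low and 51.7, 63.6 and 60.8 in CD61 high, a Log2FC of -0.44 (SE 0.10, edgeR adjusted p = 0.0041), lost with the length offset and without CD61 low replicate 1 or 2 or CD61 high replicate 1 or 3. Neither *Eif1* (426, 402 and 343 in CD61 low and 379, 419.6 and 405 in CD61 high) nor *Eif5a* (429, 415 and 379 in CD61 low and 349.9, 427 and 396 in CD61 high) passed the threshold, with Log2FC of 0.04 and -0.06 and overlapping groups, but by library size alone *Eif5a* was called lower (-0.36, edgeR adjusted p = 0.0048), and its TPM was 668 ± 26.6 in CD61 low and 520.4 ± 30.2 in CD61 high cells (SD, n = 3). Of the eIF4E-binding proteins, the repressor *Eif4ebp2* (Log2FC 0.38) and the nuclear shuttling protein gene *Eif4enif1* (0.34) were higher, and both calls were lost without CD61 low replicate 2 and with scaling by library size alone, that of *Eif4ebp2* also without CD61 high replicate 3.

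**Figure D4:**
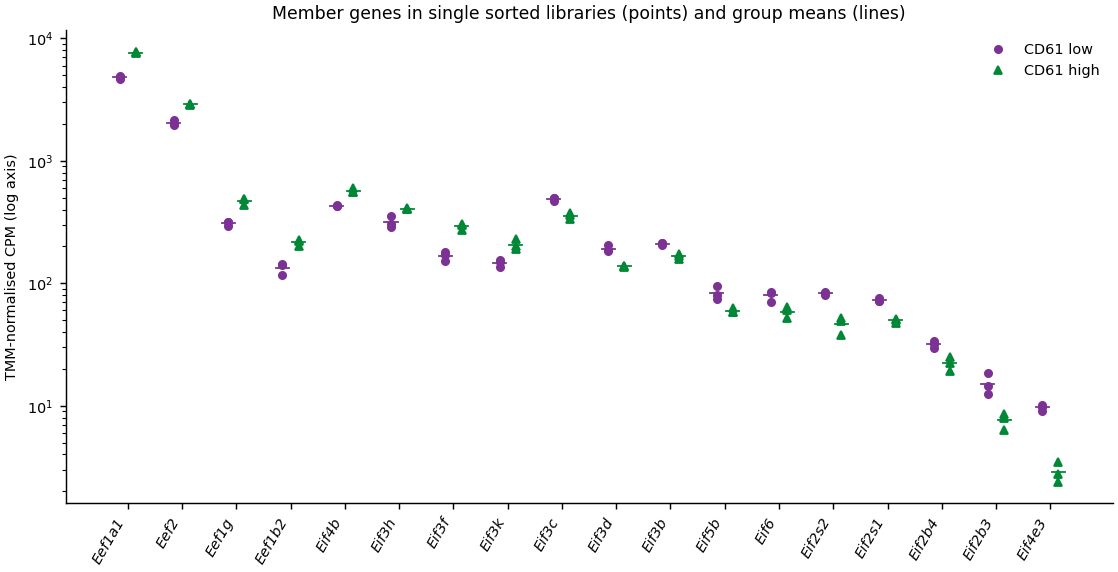
TMM-normalised CPM of 18 genes in the 3 CD61 low (circles) and 3 CD61 high (triangles) libraries on a log axis, with lines at the group means. The first 8 genes lie higher and the last 10 lower in every CD61 high library, and the gap is widest for *Eif4e3*.

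The comparisons of day 14 with day 1 and of CD61 high with CD61 low cells share no library. Of the 55 genes, 22 were called in both, of which 9 were higher in both and 11 lower in both. Of all 11445 genes tested in both, 29.8% were called in both, 13.9% higher in both and 11.6% lower in both. The 9 were *Eef1a1*, *Eef2*, *Eef2k*, *Eif1b*, *Eif2a*, *Eif3f*, *Eif3h*, *Eif3k* and *Eif4b*. The 11 were *Eif1ax*, *Eif2b2*, *Eif2b3*, *Eif2b4*, *Eif2s1*, *Eif2s2*, *Eif3b*, *Eif3d*, *Eif3j2*, *Eif5b* and *Eif6*. *Eef1g* and *Eif4ebp2* were lower at day 14 and higher in CD61 high cells (4.29% of all genes were called in opposite directions), but the day 14 call of *Eif4ebp2* was lost without the trend and without day 1 replicate 2 or day 14 replicate 2, and that of *Eef1g* under the settings named above. The sign of the Log2FC was the same for 41 of the 55 (74.5%), beside 69.4% of all genes. With the sort scaled by library size alone, 2 genes (*Eef1a1* and *Eif3f*) were higher in both and 20 lower in both, where 7.52% and 23.8% of all genes were. All 11 lower genes were among those 20. In the sort, the calls of *Eef2k*, *Eif1b* and *Eif3h* among the 9 and of *Eif1ax*, *Eif2b2*, *Eif2b4*, *Eif3b*, *Eif3j2*, *Eif5b* and *Eif6* among the 11 were also lost when a single library was left out.

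**Figure D5:**
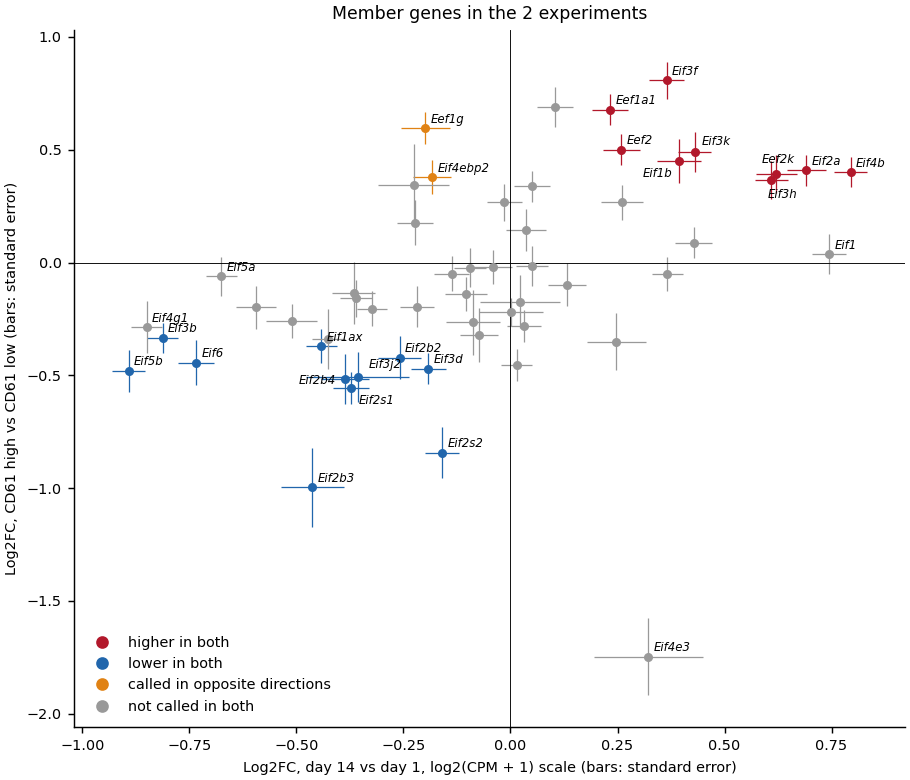
Log2FC of the 55 tested genes at day 14 against day 1 (x axis, log2(CPM + 1) scale) and in CD61 high against CD61 low cells (y axis), with standard errors as bars. The 9 red genes were called higher and the 11 blue genes lower in both, the 2 orange genes were called in opposite directions, and *Eif4e3* is the lowest point at -1.75.

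A list of 10 members, held from general knowledge to have TOP mRNAs, was read in the same way. These were *Eef1a1*, *Eef1b2*, *Eef1d*, *Eef1g*, *Eef2*, *Eif3a*, *Eif3e*, *Eif3f*, *Eif3h* and *Eif4b*. The list was not drawn from the start windows. There *Eef1a1*, *Eef2* and *Eif3f* had runs of at least 8 bases, but *Eef1b2*, *Eif3a* and *Eif4b* had 4, 2 and 7. *Eif3k*, with a run of 11, is not on it. At day 14, 5 of the 10 were higher and 2 lower than at day 1, with a median Log2FC of 0.17, where 32.6% of all genes were called higher and 36.0% lower. In CD61 high cells 7 were higher and 1 (*Eif3e*) lower (19.4% and 16.0% of all genes), with a median of 0.45. By library size alone 4 were higher and 2 lower (9.32% and 39.9% of all genes), with a median of 0.15, beside -0.29 for all genes. Cytosolic ribosomal protein genes, the largest class of TOP mRNAs, are not members. Of 77 tested in the sort, 60 rose and 1 fell with CD61 (median Log2FC 0.62). By library size alone 27 were higher and 2 lower, where 9.32% and 39.9% of all genes were. Of 76 tested over the days, 52 rose and 9 fell by day 14 (median 0.29). The 6 members on the gene list of the study's interference screen (*Eif3a*, *Eif3b*, *Eif3c*, *Eif3f*, *Eif3l* and *Eif4h*) went different ways. By day 14, 1 rose and 4 fell, and with CD61 1 rose and 2 fell, counts of 6 genes that stand beside the same shares of all genes. By library size alone 1 rose and 5 fell with CD61, where 9.32% and 39.9% of all genes did. *Eif3f* was the higher gene each time.

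Other genes of the pathway were read from a list of 52 regulators, release factors and helpers, of which 51 were tested. At day 14, 11 were higher and 28 lower than at day 1, and in CD61 high cells 7 were higher and 17 lower (2 higher and 33 lower by library size alone). The shares of all genes called, for these and the smaller lists that follow, were 32.6% higher and 36.0% lower at day 14 and 19.4% and 16.0% in the sort. With the sort scaled by library size alone, those shares were 9.32% higher and 39.9% lower. The release and recycling factors *Etf1*, *Gspt1* and *Abce1* were lower in both, by 0.33, 0.62 and 0.69 at day 14 and by 0.79, 0.29 and 0.73 in CD61 high cells on the log2 scale, the sort call of *Gspt1* being lost with the length offset. The scanning helicase gene *Dhx29* had a Log2FC of -1.20 and -0.95, the latter not called with the length offset. *Pdcd4*, an inhibitor of eIF4A that mTORC1 signalling removes, was higher in both, with 0.49 at day 14 and 1.39 in CD61 high cells. Of the 16 genes of the mTORC1 and MNK arm, 10 were lower and 3 higher at day 14. That list mixes activators and inhibitors, so its counts give no direction for the arm. Among the lower genes were *Mtor* at -0.42, *Mknk2*, a kinase of eIF4E, at -0.81, and the inhibitor *Deptor* at -0.95. In CD61 high cells 3 of the 16 were higher and 1 lower, or 2 and 9 by library size alone, where 9.32% and 39.9% of all genes were. Of the 5 genes of the ATF4 branch, which is induced when eIF2 alpha is phosphorylated, 3 were higher and 1 lower at day 14, and 4 were lower in CD61 high cells with either scaling. *Asns*, asparagine synthetase, was lower in both, with a Log2FC of -0.45 at day 14 and -0.69 in CD61 high cells, and *Atf5* passed the threshold in neither (-0.03 and 0.12). The other members of the branch, *Atf4*, *Ddit3* and *Trib3*, were called in opposite directions in the 2 experiments, as was *Ppp1r15a*, a subunit of the eIF2 alpha phosphatase from another of the lists. These 4 had Log2FC of 0.47, 1.27, 1.44 and 0.88 at day 14 and of -0.57, -1.34, -0.95 and -0.86 in CD61 high cells, each called in limma or edgeR. Of the eIF2 alpha kinases, *Eif2ak2* (PKR) was lower in both (-0.83 and -1.43), while *Eif2ak3* (PERK) was at -0.23 and 0.51, the latter not called by library size alone or with the length offset.

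The 6 proliferation markers summed to 0.162 to 0.166% of reads at day 1 and 0.158 to 0.164% at day 14, with *Mki67* at 283 and 299 CPM on average, so that these transcripts were present on every day. In the sort they summed to 0.158 to 0.183% of counts in CD61 low and 0.155 to 0.172% in CD61 high libraries, while their TMM-normalised CPM summed to 1433 to 1670 and 1703 to 1924. With TMM scaling 2 of the 6, *Top2a* and *Cdk1*, were called higher in CD61 high cells and none lower (19.4% and 16.0% of all genes). With scaling by library size alone neither was called, while *Pcna* (Log2FC -0.49) and *Mcm2* (-0.39) were called lower. At that scaling 9.32% of all genes were higher and 39.9% lower. Osteoblast markers moved with the sort, from 1.90 to 2.25% of counts in CD61 low to 4.37 to 4.53% in CD61 high cells, most of it *Col1a1*, and all 5 were called higher. Over the days their sum went from 3.54% of reads at day 1 to 2.43% at day 10 and 2.79% at day 14, where *Col1a1* was called lower and the other 4 higher than at day 1. *Acta1*, a muscle actin, went from 2.12 CPM at day 1 to 23.98 at day 14, while *Myod1* and *Myog* were at or near 0. In the sort *Acta1* was called higher, at 17.88 TMM-normalised CPM in CD61 low and 34.35 in CD61 high cells. The muscle marker *Des* was not called there. The part of these markers in the differences above was not tested.

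Some members share sequence with other loci, which the 2 counting methods treat differently. Of the exonic 50-base stretches of *Eif1* 21.5% had a second exact match in GRCm39, of *Eef1a1* 17.8%, of *Eef1g* 9.21%, of *Eif3b* 8.64% and of *Eif4e* 7.65%, against 0 to 6.72% for the other tested members. Exons of another gene overlap 39.1% of the exonic bases of *Eif1*, 32.5% of *Eif3d*, 31.8% of *Eif5a*, 31.5% of *Eif2b1*, 31.1% of *Eif2s1* and 30.4% of *Eif4b*, against 0 to 29.9% for the other tested members. Whether reads were shared between these loci was not tested. Levels also differed between the experiments for some members. *Eif2s3x* had a mean of 17.7 CPM at day 14 and 197 CPM, by library size alone, in the sorted libraries, *Eef1g* 49.5 and 382, and *Eif3j2* 4.45 and 47.6, whereas the median member in the sort had 0.78 times its day 14 value. These tables were made separately and no test was run between them.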

How the data were processed

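The genes and lists were chosen with earlier results of these data known. For the 8 differentiation libraries the CPM values of 39179 genes that the authors deposited come from STAR alignments and HTSeq-count (the submitters' processing notes name GRCm39 without saying for which files, and the annotation behind that table is not given in the sources used here). All CPM values were within 0.01 of whole reads, so reads were recovered. For the 6 sorted libraries the authors deposited Salmon (GRCm39 release 104) estimated counts and TPM values per transcript, which were summed per gene over the 115556 of 116747 transcripts matched to GENCODE M39 (99.3 to 99.4% of counts), and estimated counts were rounded to whole numbers. The deposited effective transcript lengths, another per-transcript value, served a length offset.

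Differentiation was tested with limma 3.58.1 on log2(CPM + 1) with a mean-variance trend in 1 fit of 8 libraries, for 12725 genes above 1 CPM in at least 1 library. edgeR on the recovered reads was an alternative. The sort was tested with edgeR 4.0.16 (quasi-likelihood, TMM factors over all genes) for 12077 genes with at least 5 normalised counts in all 6 libraries, with DESeq2 1.42.0 as an alternative. All tests were two-sided with Benjamini-Hochberg adjustment over all genes tested, in R 4.3.3. Further alternatives were a pseudocount of 0.1, other filters and scalings, a length offset, the replicate block and each library left out. Sample values are given for the 5 highest and 5 lowest called members of the day 14 and sort comparisons (groups not overlapping, mean of at least 5 CPM), the members on the screen list, the most abundant member and those near 0, 24 tested genes in all. The HTSeq settings for strand and shared reads are not given in the sources used here, so reads of overlapping and antisense genes cannot be told apart. Scripts were tested on simulated data.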

Additional observations from a re-analysis of the deposited data

How the results depend on the processing

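None of the called members changed sign under any alternative run. For the 24 members given with sample values there were 2400 Log2FC values under alternatives, of which 2278 kept their side of the threshold, 81 lost a call and 41 gained one. Counts of members called moved by over 1.5 times in these cases. An adjusted p below 0.05 gave 10 lower at day 7, in place of 6. In the sort, scaling by library size alone gave 4 higher and 33 lower in place of 13 and 14, since it moves the median of all genes by -0.29, and a length offset gave 9 lower. Fits that left out a library gave 8 to 12 higher and 6 to 15 lower in the sort. The shares of all genes for these counts are not given here, apart from those by library size alone stated above. The study's methods describe 3 independent groups of sorted cells, but the labels do not say that a replicate number marks such a group, and the numbers were not treated as pairs (same-numbered sorted libraries correlated at r = -0.24, 0.15 and -0.05, differentiation libraries at -0.03 to 0.06). With the replicate number as a block (replicate block) the sort gave 12 higher and 13 lower, and the days against day 1 gave 26 and 6, 14 and 20, and 15 and 24. DESeq2 gave 13 higher and 15 lower in the sort, and edgeR on the recovered reads 16 higher and 22 lower at day 14. Leaving out a library of the time course gave 13 to 16 higher and 20 to 24 lower at day 14. With 2 libraries a day and 3 a sorted group, the p-values rest on few samples. Counting noise limits the genes under about 10 CPM, *Eif3j2*, *Eif3j1* and *Eif4e3* in the differentiation libraries. In the sort it limits *Eif4e3*, and *Eif2b3* in CD61 high cells.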
